A study of Mus musculus with 6 samples.

Results

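The genes described here encode tenascin C (Tnc), thrombospondins 1 to 3 (Thbs1, Thbs2, Thbs3), SPARC (Sparc), osteopontin (Spp1) and the tolloid-like protease Tll1. They are 7 of the 30077 genes in the deposited table and were picked by name from a gene list. That list was drawn up with the comparison of these same libraries already known, so the differences between groups given for the 7 genes are a description and carry no test. The cells were bEnd.3, a mouse brain endothelial cell line labelled as wild type. One group of 3 libraries came from cells that received, in 100 µl of culture medium, mitochondria taken from the mouse osteocyte-like line MLO-Y4, and the other group of 3 came from cells that received this volume without mitochondria. RNA was taken 24 h later. The amount of mitochondria is not given in the labels, both cell types are single established lines, and the labels do not say whether replicate libraries stand for separate dishes, so the p-values below rest on a spread between libraries that could be technical alone.

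Matricellular proteins are secreted into the extracellular matrix, where they act on cells and on growth factors rather than bearing load. Tenascin C is a large hexameric glycoprotein that loosens the hold of cells on fibronectin and is best known from tissue that is growing, healing or under mechanical strain. Thrombospondin 1 inhibits angiogenesis by acting on endothelial cells through CD36 and CD47, and it can activate latent TGF-beta. SPARC binds collagens, osteopontin binds integrins and CD44, and tolloid proteases cut procollagens and other matrix precursors.

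Library totals ranged from 64609635 to 65576084 counts in the control group and from 59651087 to 63581460 in the mitochondria group. Reads on the ribosomal RNA locus CT010467 and on Lars2 together took 2.81 ± 0.948% of control and 6.31 ± 1.80% of mitochondria libraries (SD, n = 3), with control 2 lowest at 1.74% and mitochondria 2 highest at 7.94%. Levels are given in FPKM, the deposited value scaled for gene length and library size. Of 11 endothelial markers, 10 passed the filter on low values, and the list summed to 1116 to 1126 FPKM in control and 1075 to 1127 FPKM in mitochondria libraries. The exception was Vwf, von Willebrand factor, at 0.328 to 0.574 FPKM. All 11 osteocyte markers in the table stayed under 1 FPKM in every library, with a summed level of 0.839 to 1.21 FPKM in control and 0.613 to 0.944 FPKM in mitochondria libraries. Of 8 fibroblast and mural markers, 6 were under 1 FPKM in every library, and the list summed to 4.13 to 6.53 FPKM in control and 2.60 to 9.59 FPKM in mitochondria libraries. Of 5 leukocyte markers, Cd68, which encodes a lysosomal glycoprotein, was at 38.0 ± 1.08 FPKM in control and 53.4 ± 4.19 FPKM in mitochondria libraries, and the other 4, among them the defining marker Ptprc at 0 to 0.0074 FPKM, stayed under 1 FPKM. The leukocyte list summed to 36.9 to 38.8 and 49.6 to 57.9 FPKM. The part of these markers in the results was not tested.

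Promoter sequence is shown for Tnc, the member with the largest difference between groups, and for Spp1, which lay on the other side of 0. Promoters were those of RefSeq on GRCm38.p6, which held an entry for 6 of the 7 genes and none for Thbs1. Each sequence is the 250 bases before the annotated start, written 5′ to 3′ on the strand of the gene, and capitals mark motif matches. The Tnc stretch is chr4:64047016-64047265 on the minus strand and the Spp1 stretch is chr5:104434861-104435110 on the plus strand.
Tnc: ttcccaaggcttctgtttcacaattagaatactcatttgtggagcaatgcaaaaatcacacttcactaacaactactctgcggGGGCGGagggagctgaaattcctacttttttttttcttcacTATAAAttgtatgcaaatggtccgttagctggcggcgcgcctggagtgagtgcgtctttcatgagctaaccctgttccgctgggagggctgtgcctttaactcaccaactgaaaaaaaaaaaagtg
Spp1: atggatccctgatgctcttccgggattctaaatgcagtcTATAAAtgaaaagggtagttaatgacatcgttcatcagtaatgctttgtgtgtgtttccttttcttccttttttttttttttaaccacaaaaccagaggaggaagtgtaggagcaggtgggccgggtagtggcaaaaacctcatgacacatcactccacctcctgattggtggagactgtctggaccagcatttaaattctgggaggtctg
Motifs were searched on both strands. For the TEAD factors, which act in the Hippo pathway, the letters searched were CATTCC. For AP-1, the Fos and Jun dimer, they were TGANTCA. The antioxidant response element bound by NRF2 was searched as TGACNNNGC. The GC box of Sp1 was searched as GGGCGG, and the TATA box of the basal machinery as TATAAA. The NF-kappaB motif and the CArG box of SRF were also searched. The capitals in Tnc are a GGGCGG at −167 and a TATAAA at −126, counted from the start site, and the capitals in Spp1 are a TATAAA at −211. A match was marked by its letters wherever it lay, and whether any serves as a working element was not tested. Both genes have a second entry, which is not shown. From the second Tnc start site, 64046936, the same matches lie at −246 and −205. Closer to that start the second entry holds tatataag, which the letters TATAAA do not match and the search passed over. The second Spp1 entry held none of the 7 motifs. In windows of 300 bases, GGGCGG was found in 35.7% and TATAAA in 13.6% of all 32851 promoters. Thbs2 also held a TATAAA, Thbs3 a GC box and Tll1 a TEAD match at −238, a motif found in 14.7% of promoters. Sparc held none of the 7 motifs in this window. The deposited row for Tnc spans chromosome 4 from 63959785 to 64020725 on GRCm38, whereas the GENCODE M21 gene runs on for 26290 bases at the 5′ end to 64047015, the start site used above. For the other 6 genes the deposited and GENCODE spans were the same.

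In control cells the levels of the 7 genes covered a wide range, and Thbs1 stood highest. Thbs1 was at 488 ± 10.1 FPKM (SD, n = 3) and Sparc at 413 ± 1.88 FPKM. Both lay above 99.48% of tested genes by their mean over the 6 libraries. Tnc followed at 42.9 to 47.1 FPKM, then Tll1 at 5.22 ± 0.295, Spp1 at 3.90 ± 0.338, Thbs2 at 1.58 ± 0.253 and Thbs3 at 0.429 ± 0.0632 FPKM. No neighbours in this order overlapped between libraries of the group. In cells given mitochondria the order was Sparc, Thbs1, Tnc, Spp1, Tll1, Thbs2 and Thbs3, again with no overlap between neighbours, so that Sparc and Thbs1 had changed places and so had Spp1 and Tll1. Thbs3 was the one member that did not pass the filter on low values (at least 1 FPKM in at least 3 of the 6 libraries), and 6 members were tested.

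**Figure D1:**
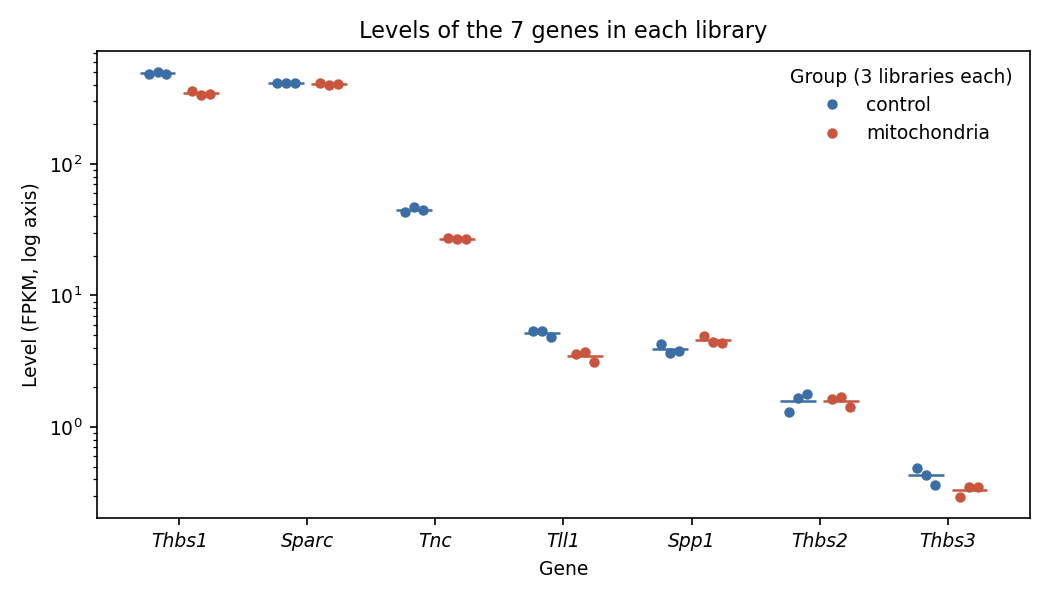
Level of each member in each library, in FPKM on a log axis, with blue points for the 3 control libraries, red points for the 3 mitochondria libraries and a short line at each group mean. Thbs1 and Sparc sit near the top at 333 to 500 FPKM and Thbs3 at the bottom at 0.296 to 0.488 FPKM.

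The thrombospondin, tenascin and osteopontin families were each carried almost wholly by 1 member. Thbs1 made up 99.6 ± 0.0290% of the summed FPKM of the 5 thrombospondins in control and 99.4 ± 0.0489% in mitochondria libraries. Thbs4 held 0 to 10 counts per library and Comp, thrombospondin 5 of cartilage, 0 to 20. Tnc made up 99.4 ± 0.183% and 99.1 ± 0.0442% of the 4 tenascins. Tnxb, tenascin X, stayed at 0.218 to 0.353 FPKM, and Tnr and Tnn, tenascins of the nervous system and of bone, were under 0.03 FPKM. In the SPARC family, Fstl1, a secreted follistatin-like glycoprotein, was the only other gene above 1 FPKM, at 69.3 ± 0.533 and 64.1 ± 1.84 FPKM. Ibsp and Mepe, bone matrix relatives of Spp1, held 0 to 4 counts. Of the tolloids, Bmp1, the main procollagen C-proteinase, was at 9.96 ± 0.280 and 9.47 ± 0.712 FPKM, above Tll1, and Tll2 held 0 to 4 counts.

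Against the control libraries, Tnc, Thbs1 and Tll1 were lower in cells given mitochondria, Spp1 was somewhat higher, and Sparc and Thbs2 lay close to their control levels. Differences are given on CPM, counts scaled to a common library size with TMM, and as the log2 ratio of the mitochondria to the control group, followed by its standard error (SE). In edgeR's quasi-likelihood test, with a gene called at an adjusted p under 0.05, 3 of the 6 tested members were called lower, none higher and 3 were not called, while 1.10% of all 11255 tested genes were called lower, 0.986% higher and 2.09% in either direction. Since this comparison had a part in choosing the members, nothing is read from that count. The median log2 fold change of the 6 members was −0.20, beside 0.0011 for all tested genes. In these bulk libraries, fewer cells of a type and less RNA per cell cannot be told apart.

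Tnc had the largest difference. Its level was 373, 398 and 388 CPM in control 1 to 3 and 239, 249 and 242 CPM in mitochondria 1 to 3. The groups lay far apart, and the mitochondria libraries spread less than the controls. The log2 fold change was −0.67 (SE 0.04), or 0.630 of the control level, and Tnc ranked 48 from the lowest of 11255 tested genes. Leaving out each library in turn gave −0.69 to −0.65.

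Thbs1 was at 3270, 3302 and 3281 CPM in control 1 to 3 and at 2459, 2391 and 2394 CPM in mitochondria 1 to 3. The 3 controls differed from each other by 0.488% of their mean (CV), where the median CV of tested genes in this group was 5.30%. Every mitochondria library lay below every control, with a log2 fold change of −0.44 (SE 0.02). In FPKM this was the largest drop among the members, from 488 ± 10.1 to 344 ± 13.2 FPKM, and the sum of the 7 genes went from 957 ± 11.9 to 788 ± 23.2 FPKM. On log2(FPKM + 1) the median log2 fold change of all tested genes was −0.0508, a shift that these FPKM differences include.

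Thbs2, the closest relative of Thbs1 and likewise an inhibitor of angiogenesis, was at 10.2, 12.6 and 13.9 CPM in controls and at 12.9, 14.1 and 11.5 CPM in mitochondria libraries. The groups overlapped, with control 1 lowest. Its log2 fold change was 0.07 (SE 0.14), and it was −0.05 without control 1, 0.17 without control 3 and −0.0056 without mitochondria 2. Thbs3, a pentameric thrombospondin, held 175, 159 and 131 counts in controls and 103, 119 and 118 in mitochondria libraries. Its groups did not overlap in FPKM but did in CPM, where control 3 was at 2.01 and mitochondria 2 at 2.06, and with no filter its log2 fold change was −0.31 (SE 0.24). Thbs3 overlaps Mtx1, which lies on the opposite strand at 30.5 to 37.9 CPM. Whether counting used strand is not given in the sources used here, so reads of these overlapping genes may not be fully separated. The same limit holds for Tnc, Thbs1 and Tll1, whose GENCODE spans also overlap genes on the opposite strand. These are 8030451A03Rik at Tnc (5.33 to 10.1 CPM), Gm29233 at Thbs1 (0 to 5 counts) and the rRNA gene Gm22586 at Tll1.

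Tll1 was at 46.8, 45.5 and 42.3 CPM in control 1 to 3 and at 31.5, 34.2 and 28.1 CPM in mitochondria 1 to 3. The groups did not overlap, and mitochondria 3 was lowest. The log2 fold change was −0.52 (SE 0.08), and it ran from −0.59 to −0.45 in the 6 fits without a library. Its relative Bmp1 was at 98.0 ± 3.99 CPM in control and 97.1 ± 5.09 CPM in mitochondria libraries, or −0.01 on the log2 scale (SE 0.05; edgeR, adjusted p = 0.932). The share of Tll1 in the summed tolloid FPKM was 34.4 ± 1.89% in control and 26.9 ± 2.62% in mitochondria libraries.

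Sparc was at 1745, 1699 and 1755 CPM in controls and at 1776, 1769 and 1789 CPM in mitochondria libraries. These ranges did not overlap, but in FPKM they did, and the log2 fold change of 0.04 (SE 0.03) turned to −0.12 with TPM, −0.02 with FPKM and −0.0099 with library totals. Spp1, at 7.92, 6.54 and 6.99 CPM in controls and 9.20, 8.66 and 8.32 CPM in mitochondria libraries, did not overlap between groups on either scale. Its log2 fold change was 0.29 (SE 0.13). It rests on 443 to 586 counts per library and was not called. Groups that did not overlap in CPM, on one side or the other, were found for 21.1% of all tested genes.

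**Figure D2:**
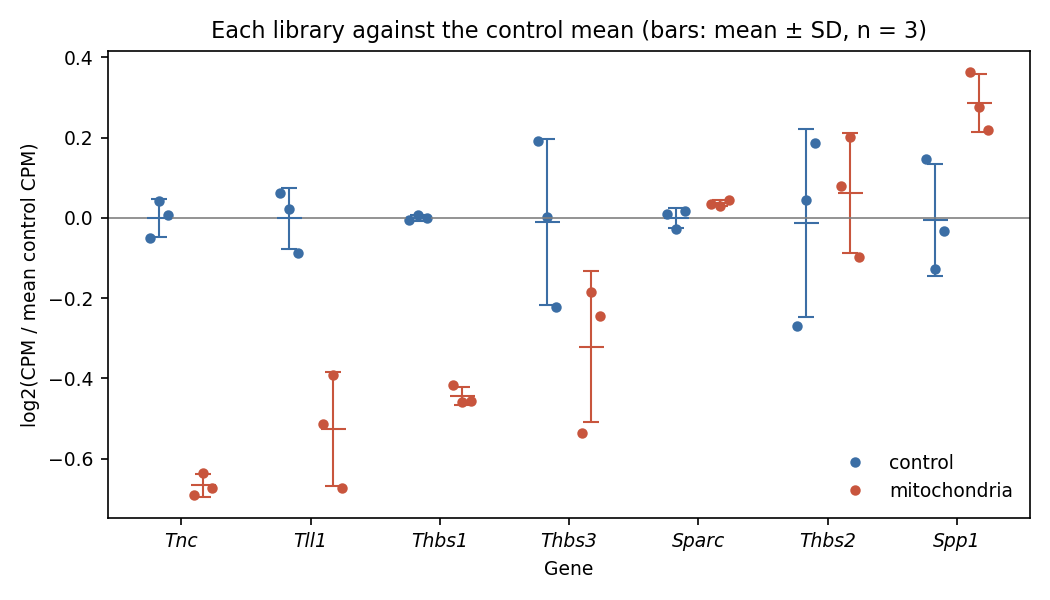
log2 of the CPM of each library over the mean of the 3 control libraries, for the 7 members ordered by log2 fold change, with mean ± SD per group (n = 3). Red points (mitochondria) of Tnc, Tll1 and Thbs1 lie below every blue point (control). Those of Thbs3 and Thbs2 overlap the controls, and those of Spp1 and, by little, Sparc lie above.

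**Figure D3:**
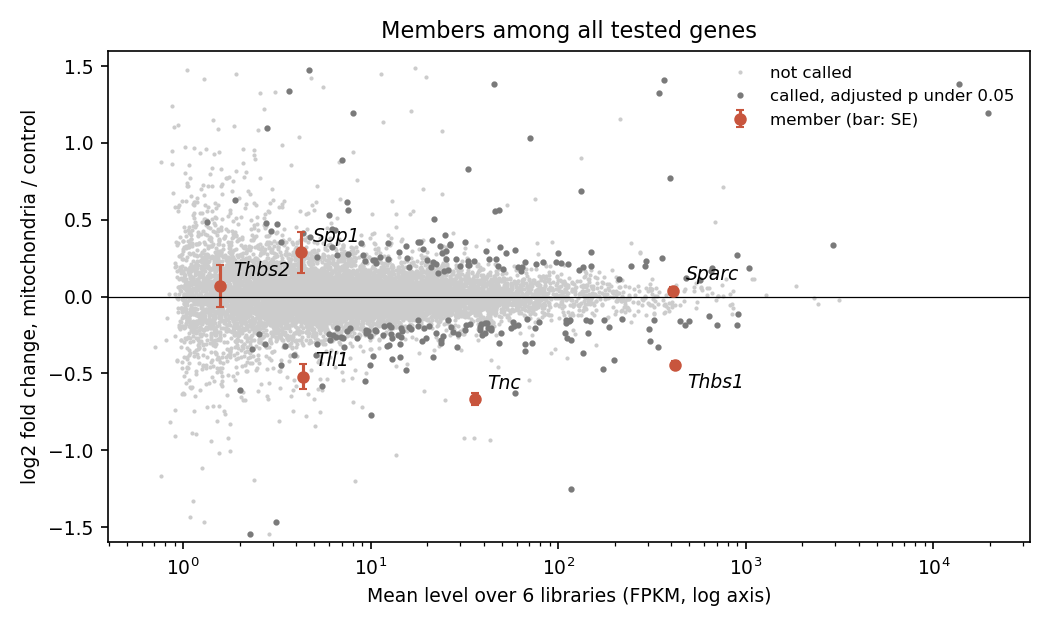
log2 fold change of each tested gene against its mean level in FPKM (log axis), with called genes in dark grey and the 6 tested members in red with their SE. The 12 tested genes beyond 1.6 in either direction are outside the plotted range. Thbs1 and Sparc have like levels, at log2 fold changes of −0.44 and 0.04.

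Ratios of 2 genes within a library do not depend on how libraries are scaled. The FPKM ratio of Thbs1 to Sparc was 1.17, 1.21 and 1.17 in control 1 to 3 and 0.864, 0.843 and 0.835 in mitochondria 1 to 3. The ratio of Tll1 to Spp1 was 1.26, 1.48 and 1.29 in controls and 0.728, 0.841 and 0.720 in mitochondria libraries. Both ratios stood above 1 in every control and below 1 in every mitochondria library. These are the pairs that changed places in the order of levels above, so the crossing of 1 restates that order. The ratio of Tnc to Fn1, its binding partner fibronectin, was 0.0875 ± 0.00048 in control libraries and 0.0625 ± 0.00086 with mitochondria, while Fn1 itself was lower there. Thbs1 and Tnc were not lower in the same measure: the ratio of Thbs1 to Tnc was 10.6 to 11.2 in controls and 12.3 to 13.2 in mitochondria libraries.

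**Figure D4:**
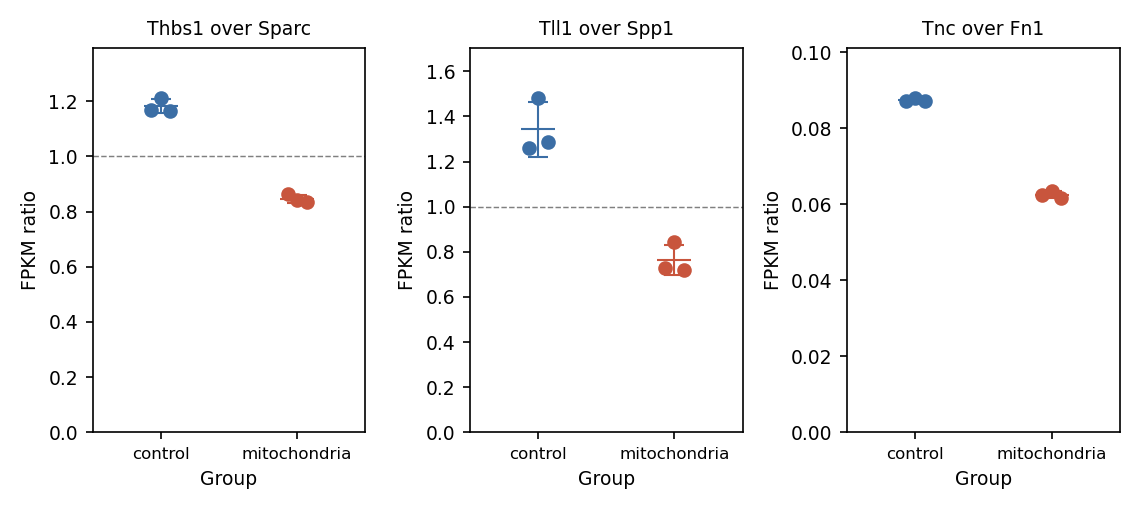
FPKM ratio of 2 genes within each library, for Thbs1 over Sparc, Tll1 over Spp1 and Tnc over Fn1, with each library as a point and mean ± SD per group (n = 3); the dashed line marks a ratio of 1. Thbs1 over Sparc was 1.18 ± 0.0258 in control and 0.847 ± 0.0148 in mitochondria libraries.

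The genes whose profiles over the 6 libraries were most like that of Tnc were ranked by the root mean square difference of log2 CPM, each gene centred on its own mean, without members or predicted gene models. They were Ankrd1, an ankyrin repeat protein of strained muscle (0.0648), Tgfb2, a TGF-beta ligand (0.0722), Npr3, the natriuretic peptide clearance receptor (0.0852), the histone gene H2ac4 (0.111) and Bdnf, a neurotrophin (0.118). On the same measure Thbs1 lay at 0.117 and Tll1 at 0.119 from Tnc, and Sparc at 0.354. The difference between groups is part of this likeness, so the differences of genes chosen by it are a description with no test. Ankrd1 was at 36.2 ± 2.22 CPM in control and 24.7 ± 0.234 CPM in mitochondria libraries, a log2 ratio of −0.55 (SE 0.08). Npr3 was at −0.61 (SE 0.09) and Bdnf at −0.48 (SE 0.06). The profiles nearest to Thbs1 were those of the histone gene H3c2 (0.0337), Ccn1 (0.0357), Fam13b (0.0374), Sinhcaf, a part of the SIN3 deacetylase complex (0.0572), and Ptprk, a receptor tyrosine phosphatase (0.059). Ptprk was at 482 ± 3.83 CPM in control and 384 ± 1.86 CPM in mitochondria libraries, or −0.33 (SE 0.03). Fam13b was at −0.39 (SE 0.04) and Sinhcaf at −0.38 (SE 0.08). H2ac4, at −0.54 (SE 0.19), and H3c2, at −0.40 (SE 0.15), have near-identical copies in the genome, so their counts are uncertain.

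Around the members, 13 lists of relatives, receptors, proteases and regulators held 219 genes counted once, of which 106 were tested. Of these 11 were called, 4 higher and 7 lower, or 10.4% beside 2.09% of all tested genes. The split depended on scaling: TPM, on which the median of all genes lay at −0.15, called 0 higher and 11 lower in limma, and library totals called 3 higher and 13 lower in edgeR. Several of these genes were already known to differ when the lists were written. This share and the adjusted p-values of listed genes below are therefore no independent evidence, also for Ccn1 and Tgfb2, named above for their profiles. How many of all tested genes had an unadjusted p under 0.05 was not counted. Nothing is therefore read from counts of related genes at that rule. The background for DESeq2 counts is 597 called of all 11255 tested genes.

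Among secreted relatives the CCN family lay lowest, with 2 of 4 tested members called lower in edgeR (3 in DESeq2), none higher in edgeR, and a median log2 fold change of −0.30. Ccn2, the connective tissue growth factor, was at 1229 ± 19.7 CPM in control and 978 ± 28.0 CPM in mitochondria libraries and fell by 0.33 (SE 0.03, adjusted p = 0.000256 in edgeR). Ccn1, an integrin ligand with thrombospondin-type repeats as in Ccn2, went from 514 ± 18.7 to 387 ± 1.87 CPM and fell by 0.41 (SE 0.03, adjusted p = 0.000165 in edgeR). Ccn4 was at −0.27 (SE 0.07, adjusted p = 0.0658 in edgeR) and Ccn3 at 0.10 (SE 0.11, adjusted p = 0.724 in edgeR). In the list of other matricellular proteins 1 of 10 tested genes was called, higher: Ecm1, a secreted matrix glycoprotein, which was at 136 ± 0.0642 CPM in control and 166 ± 7.19 CPM with mitochondria and rose by 0.28 (SE 0.04; adjusted p = 0.00574 in edgeR). That call was lost with no filter (adjusted p = 0.0672 in edgeR) and in the limma fits on FPKM (adjusted p = 0.103 and 0.105) and TPM (0.23). Lgals8, galectin 8, at 0.16 (SE 0.06; adjusted p = 0.227 in edgeR), did not pass. None of 11 tested genes with thrombospondin repeats passed in edgeR, where 3 had an unadjusted p under 0.05, and DESeq2 called 2. The nearest were the aggrecan-cleaving protease Adamts4 at 0.29 (SE 0.08, adjusted p = 0.0995 in edgeR) and Adamts6 at −0.43 (SE 0.13, adjusted p = 0.137 in edgeR). Fstl1, the 1 tested gene of the SPARC family, was at −0.05 (SE 0.04).

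Tolloid proteases and their substrates included 2 called genes of 10 tested, both lower, with a median of −0.09. Col5a2, a chain of the fibrillar collagen V, fell by 0.31 (SE 0.04) from 171 ± 2.74 to 138 ± 5.76 CPM, and Fn1 fell by 0.18 (SE 0.02) from 6638 ± 183 to 5851 ± 69.8 CPM. The Fn1 call was lost with no filter (adjusted p = 0.113 in edgeR) and in limma on FPKM (adjusted p = 0.061). Pcolce2, an enhancer of procollagen cleavage, was at 0.09 (SE 0.09). None of 9 tested proteases known to cut the members passed in edgeR, where 2 had an unadjusted p under 0.05, and DESeq2 called 1. The nearest besides Adamts4 was Ctsb, the lysosomal protease cathepsin B, at 0.07 (SE 0.03, adjusted p = 0.264 in edgeR).

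Among receptors of the members, edgeR called Itgb3, the beta chain of the integrin that binds tenascin C, thrombospondin 1 and osteopontin, and no other gene. Itgb3 stands in all 3 receptor lists, of 8 tested genes for tenascin C, 16 for thrombospondins and 9 for osteopontin and SPARC. An unadjusted p under 0.05 was found in edgeR for 5, 4 and 4 of these, with no count over all tested genes beside it. DESeq2 called 4, 3 and 2, beside 597 of all 11255 tested genes. Itgb3 rose from 122 ± 1.49 CPM in control to 144 ± 4.79 CPM, by 0.24 (SE 0.04, adjusted p = 0.0123 in edgeR). That call was lost without control 3 (adjusted p = 0.0716 in edgeR) or mitochondria 3 (adjusted p = 0.0612 in edgeR). It was also lost with no filter (adjusted p = 0.0788 in edgeR) and in limma on FPKM (0.119) and TPM (0.388). Its partner chain Itgav was at −0.0071 (SE 0.04). The endothelial phosphatase Ptprb was at −0.10 (SE 0.03, adjusted p = 0.126 in edgeR and 0.0146 in DESeq2). Sdc4, a heparan sulfate proteoglycan, was at 0.33 (SE 0.10, adjusted p = 0.130 in edgeR and 0.0303 in DESeq2). Itgb1, the common beta chain, was at −0.09 (SE 0.03, adjusted p = 0.164 in edgeR and 0.044 in DESeq2), and edgeR called it with library totals (adjusted p = 0.0401) and with the replicate block (adjusted p = 0.033). Of the thrombospondin 1 receptors, Cd47 was at 118 ± 4.37 and 118 ± 5.32 CPM, and Cd36 was at 0.0423 to 0.140 FPKM, below the filter. Itga9, an integrin chain that binds tenascin C and osteopontin, was below it too, at 0.409 to 0.768 FPKM.

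Of 38 tested regulators of Tnc and Thbs1 transcription, 3 were called lower, 2 higher and 33 not, with a median of 0.0020. The TGF-beta ligands went apart, with Tgfb2 at 42.7 ± 2.82 CPM in control and 28.6 ± 1.16 CPM in mitochondria libraries (−0.58, SE 0.07; adjusted p = 0.00217 in edgeR) and Tgfb3 at 5.68 ± 0.216 and 8.77 ± 0.967 CPM (log2 ratio 0.63, SE 0.14; adjusted p = 0.0415 in edgeR). Tgfb1 was at 0.10 (SE 0.04, adjusted p = 0.283 in edgeR). Klf2, a flow-induced endothelial transcription factor, rose by 0.30 (SE 0.05, adjusted p = 0.00761 in edgeR), a call lost with no filter (adjusted p = 0.0927 in edgeR) and in limma on FPKM (0.0614 and 0.0619) and TPM (0.113). Myc fell by 0.26 (SE 0.04) and Cited2, a transcriptional co-regulator, by 0.24 (SE 0.05). Without a library, Tgfb3 was called in 1 of 6 fits (that without mitochondria 2; otherwise adjusted p up to 0.151 in edgeR), Cited2 in 1 (that without mitochondria 1; otherwise adjusted p up to 0.109), and Myc in 4 (not without control 3, adjusted p = 0.0716, or mitochondria 3, adjusted p = 0.0744). With no filter, Tgfb3, Myc and Cited2 were not called (adjusted p = 0.181, 0.113 and 0.240 in edgeR). In limma on log2(FPKM + 1) they were not called either (adjusted p = 0.110, 0.0518 and 0.0876). The Tgfb3 call was also lost in limma on TPM (adjusted p = 0.0845) and in edgeR with library totals (adjusted p = 0.0511).

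**Figure D5:**
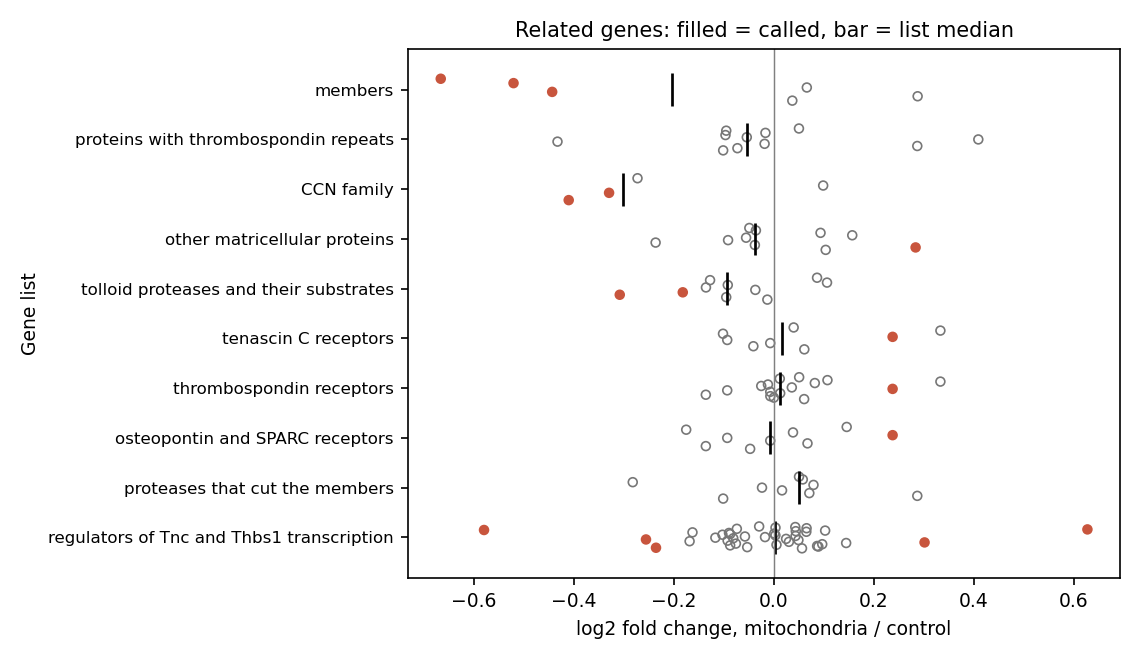
log2 fold change of each tested gene in the lists of at least 2 tested genes, 1 circle a gene, filled red where called at an adjusted p under 0.05 in edgeR, with a black bar at the list median. The CCN family has its median at −0.30 and the thrombospondin receptors at 0.01.

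The share of reads on CT010467 and Lars2 together, called the ribosomal share here, moved with the groups. It was 1.74 to 3.56% in control and 4.38 to 7.94% in mitochondria libraries. Only CT010467 is a ribosomal RNA locus, and the share does not tell it apart from Lars2. A fit that holds both can therefore separate share and group only poorly. With log2 of that share as a covariate, Tnc was at −0.64 (SE 0.07), Thbs1 at −0.41 (SE 0.04) and Tll1 at −0.55 (SE 0.15). Tll1 was not called there. In that fit 3 genes of the whole table were called in edgeR, 2 of them members, and none of the 106 related genes, of which 15 had an unadjusted p under 0.05. The members were chosen with this comparison known, so nothing is read from their part in that count. Without the covariate DESeq2 called 21 of the 106 related genes and 597 of all 11255 tested genes. With CT010467 and Lars2 left out of the counts, Tnc, Thbs1 and Tll1 were at −0.67, −0.44 and −0.52.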

How the data were processed

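RNA was measured in 6 bEnd.3 libraries, 3 control and 3 mitochondria by the treatment label. Per the file headers, the deposited table holds raw counts and FPKM values per gene. The build GRCm38 and the tools StringTie 2.1.6, HISAT2 2.2.1, cutadapt 1.9, edgeR and DESeq2 come from the submitters' processing notes, without their roles; the sources used here give neither a strand setting nor the handling of shared reads. Members, lists and naming rule were chosen with earlier results of these data known. Genes with at least 1 FPKM in at least 3 libraries (11255) were tested with edgeR 4.0.16 in R 4.3.3. The test used TMM and quasi-likelihood with group only, and was two-sided. Adjustment was by Benjamini-Hochberg over all tested genes, and genes were called under 0.05. A run of the code on simulated counts had 1 fixed spread for all genes and no shift of ribosomal reads. It therefore lends no weight to the calls in these libraries. SE was taken as |log2 fold change| divided by √F. Named genes are the members, every called gene of a list or its 2 lowest-p genes where fewer than 2 were called, and the 5 nearest profiles of Tnc and Thbs1; others were named after their values were seen. Motifs were searched as plain letters. Alternatives were DESeq2 1.42.0, limma 3.58.1 on log2(FPKM + 1), log2(FPKM + 0.1) and log2(TPM + 1), other scalings and filters, the ribosomal share as a covariate, a replicate block and each library left out. Leaving out CT010467 and Lars2 was added after seeing the data. On a mean over tested genes, libraries of a group differed by more than counting noise (chi-square per gene 15.1 or more). CT010467 and Lars2 were not left out there, and rows of high counts can carry much of such a mean.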

Additional observations from a re-analysis of the deposited data

How the results depend on the processing

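Values of the members rest on the libraries that chose them, so their calls across settings are a description. Over 17 alternatives Tnc ran from −0.82 to −0.64 and Thbs1 from −0.60 to −0.41. Tll1, untested at a mean FPKM of at least 5, ran from −0.64 to −0.45 over the other 16 and was not called in 4: limma on FPKM with either pseudocount, no filter and the ribosomal covariate. Directions of genes near 0 flipped: Thbs2 with TPM (−0.0742) and without a library (−0.0517 to 0.169; below 0 without control 1 or mitochondria 2), Sparc on FPKM with either pseudocount (−0.0237 each), TPM (−0.121) and library totals (−0.0099), and with TPM Lgals8 (−0.00013) and Ctsb (−0.0873). TPM moved the median of all genes to −0.15. Relative to it Tnc was at −0.67, Thbs1 at −0.45, Sparc at 0.03 and Thbs2 at 0.08. The 235 calls (111 higher) became 597 with DESeq2, 39 (7 higher) and 36 (6 higher) with limma on FPKM with a pseudocount of 1 and 0.1, 353 with library totals (61 higher), 22 (6 higher) with no filter, 3 with the ribosomal covariate and 394 with the replicate block; TPM gave 328 (20 higher). Without a library they ranged from 68 to 233. Related genes called, 11 in edgeR, were 21 with DESeq2, 4 with either limma FPKM fit or no filter (none of them higher), 0 with the covariate, and 7 to 10 without a library. The cause was not tested. Same-numbered libraries deviated together only weakly (correlations 0.0697, 0.0662 and 0.0345). Pairs of unlike number lay between −0.132 and 0.0689, and control 3 was closest to mitochondria 1. These values do not settle whether the numbers pair the samples. Thbs3, at 103 to 175 counts per library, lay under the filter on low values.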
